A study of Mus musculus with 16 samples.

Results

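Endothelial cells were a small part of the cells recovered from the proximal thoracic aorta of Smad3+/+ and Smad3SmKO mice. By a fixed rule, 1228 of 50858 cells that passed the filters, or 2.41%, were endothelial. A cell was taken as endothelial where Pecam1 and Cdh5, the genes of the endothelial junction proteins CD31 and VE-cadherin, together gave at least 2 unique molecular identifiers (UMIs, 1 for each captured RNA molecule), where Myh11 and Dcn, markers of vascular smooth muscle cells (VSMCs) and fibroblasts, each gave under 5, and where the leukocyte gene Ptprc gave 0. The filters kept barcodes with over 600 but under 6000 genes detected, over 2000 but under 50000 UMIs, and a mitochondrial part below 25%. Since the rule read Pecam1, Cdh5, Myh11, Dcn and Ptprc, their levels in these cells are given as a description and not as a finding.

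The study asked how loss of Smad3, a transcription factor that carries the TGF-beta signal, in smooth muscle changes the aorta before and after the root dilates. All mice, controls included, carried Myh11-CreER, a tamoxifen-inducible recombinase driven in smooth muscle cells, and had received 2 mg of tamoxifen per day for 5 days from 6 weeks of age on the 129S6/SvEv background. Smad3SmKO mice had both Smad3 alleles floxed, and Smad3+/+ mice had neither. The transgene lies on the Y chromosome, so every mouse was male. Aortas from the root to the branch of the left subclavian artery were taken at 10 weeks after deletion (16 weeks of age, 2 mice of each genotype) or at 18 weeks (24 weeks of age, 5 Smad3+/+ and 7 Smad3SmKO mice), with 1 library of droplet single-cell RNA sequencing per mouse. Some mice also carried the EGFP-L10a tracer, which the recombinase switches on. Tissue was digested for 30 min in batches 1 to 3 and for 60 min in batches 4 to 6, where a batch is the collection group given by the labels, and live nucleated cells (DyeCycle Violet positive, propidium iodide negative) were sorted. The recombinase is not aimed at endothelial cells, so the comparison of genotypes in these cells asks how they differ beside smooth muscle that has been targeted.

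Endothelial cells line every vessel and differ by vessel type. Arterial cells face high shear, capillary cells take up fatty acids, venous cells carry the adhesion molecules that capture leukocytes, and lymphatic cells express Prox1 and Lyve1. A thoracic aorta with its adventitia holds the endothelium of its lumen together with that of the vasa vasorum, the adventitial lymphatics and attached fat. TGF-beta and BMP ligands act on these cells through the receptors Tgfbr1, Tgfbr2, Acvrl1 and Bmpr2 and the co-receptor Eng, and the Smad proteins then drive targets such as Id1, Smad7 and Pmepa1.

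The 16 libraries held 66349 barcodes, of which 76.7% passed the filters. Each library gave 3 to 163 endothelial cells, with a median of 73.5, and the 3 largest libraries held 440 of them. The endothelial median was 5384.5 UMIs and 2140 genes per cell, against 7633 UMIs in the 7482 VSMCs, 7837 in the 30549 fibroblasts and 7162 in the 1359 leukocytes taken by like rules. No endothelial barcode sequence occurred in more than 1 library, while 5157 deposited barcode sequences did. Doublets were not removed: the automatic threshold of Scrublet marked 0.643% of cells, and 43 endothelial cells were among the 2073 with top scores at the loading-based rate. Smad3 itself gave 0 to 11 UMIs per library in endothelial cells, 63 in all, with a mean of 7.72 ± 3.82 CPM (UMIs per 1000000 UMIs of the class in that library, SD, n = 15). In VSMCs, where it was targeted, Smad3 was not lower in the libraries labelled Smad3SmKO, at 9.43 ± 3.34 CPM (SD, n = 7) against 6.55 ± 3.11 (SD, n = 5) at 18 weeks (log2 difference 0.27, SE 0.40, edgeR quasi-likelihood test, Benjamini-Hochberg adjusted p = 1). Whether the counted 3′ end of Smad3 lies in the deleted part is not given in the sources used here, so these counts may not check the genotype labels. By immunoblot and qPCR of aortas, the study reported significantly lower Smad3 protein and RNA in Smad3SmKO mice. Green fluorescent protein RNA, which marks the tracer, was found in 2 libraries labelled as lacking the tracer (libraries labelled Smad3SmKO at 10 weeks, replicates 1 and 2) and in none of the cells of 2 labelled as carrying it (Smad3+/+ at 18 weeks, replicates 4 and 5). Shares and counts of called genes at 18 weeks, and the called genes Il1b, Igkc and Adamtsl1, are also given without those 2 controls. For Pmepa1 only the difference of its effects between endothelial cells and VSMCs is given so, and its effect within each class is not. At 10 weeks both libraries labelled Smad3SmKO are such, and no value without them exists. In endothelial cells only 6 tracer UMIs were counted, against 1153 in VSMCs.

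The cells carried the endothelial programme well beyond the genes of the rule. Of 20 endothelial identity genes, 19 had their highest mean of the 4 classes here, and the exception was Cd34, at 418 ± 116 CPM (SD, n = 15) against 449.6 ± 123 in fibroblasts (SD, n = 16). The summed level of the list ranged from 6206 to 10870 CPM over the libraries, against 117.7 to 196 in VSMCs and 421 to 929 in fibroblasts. The classes were chosen by marker rules on the same counts, so levels between classes carry no test. At the edge of the rule, the 199 cells with 1 UMI of Pecam1 and Cdh5 had a summed identity level of 2539 CPM, and 64.3% of them had at least 3 UMIs of the list. For the 145 cells just inside, with 2 UMIs, the values were 6444 CPM and 93.1%, and for the 717 cells with 6 or more they were 9502 CPM and 99.7%. A further 83 cells met the endothelial limit but had 5 to 9 Dcn UMIs, and their identity level was 6140 CPM beside 8691 CPM of fibroblast markers.

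Leading genes spelled out several functions of endothelium. Egfl7, a secreted angiogenic factor, stood at 1087 ± 221 CPM (SD, n = 15), Emcn, a sialomucin of capillary and venous surfaces, at 625 ± 118, and Tie1, an orphan receptor kinase, at 222 ± 53.8. Kdr, the main VEGF receptor, stood at 403 ± 149 CPM against 0.048 in VSMCs and 1.89 in fibroblasts, and Flt1, the decoy-like VEGF receptor, at 463 ± 180. Nos3, which makes nitric oxide, stood at 64.1 ± 18.8 CPM against 1.15 in VSMCs and 1.37 in fibroblasts. Klf2, a shear-induced transcription factor, reached 1410 ± 502 CPM, against 196 and 276. Each of these genes was at its highest level in endothelial cells. In leukocytes the endocardial and valve list, which holds Klf2, summed to 539 ± 148 CPM (SD, n = 15), so Klf2 lay at or below that mean. The SD of Klf2 over mice, 502 CPM, was not small beside these distances.

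Genes of fatty acid handling were prominent. Fabp4, an intracellular fatty acid carrier, stood at 15971 ± 4145 CPM (SD, n = 15) against 168 in VSMCs and 71 in fibroblasts. Gpihbp1, which anchors lipoprotein lipase to the capillary wall, stood at 1297 ± 473 CPM, and Cd36, a fatty acid transporter, at 1397 ± 485. The largest spread among the leading genes was that of lymphatic genes. Ccl21a, the chemokine that draws dendritic cells into lymphatics, ranged from 0 to 13543 CPM over the libraries (mean 3342 ± 3679, SD, n = 15), and Mmrn1 ranged from 0 to 662. The number of lymphatic-like cells, a cluster described next, ran from 0 to 50 per library.

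The endothelial cells fell into 7 clusters, of which 5 could be named by marker lists and formed 4 vessel types. Together the 4 types held 1120 cells, or 91.2%. Capillary-like cells were the largest type, with 706 cells (57.5%) in 15 libraries. Lymphatic-like cells numbered 238 (19.4%), venous-like cells 98 (7.98%) and arterial-like cells 78 (6.35%). The names rest on the lists: both capillary-like clusters had 13 of 14 capillary markers, and the others had 9 of 9 lymphatic, 11 of 11 venous and 10 of 16 arterial markers. The arterial-like cluster also had 7 of 11 venous markers. The remaining clusters were left without a vessel name. One held 69 cells led by Eln, Ctgf, Col3a1 and Col1a1, with 12 of 12 fibroblast markers and 1 of 20 endothelial ones, and its cells passed the rule through Pecam1 at 546 CPM with Cdh5 at 1.49. The other held 39 cells led by the mural genes Rgs5, Ndufa4l2 and Notch3, with 8 of 8 pericyte and 17 of 20 endothelial markers. It also had 10 of 16 arterial markers, and 33.3% of its cells had top Scrublet scores.

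**Figure D1:**
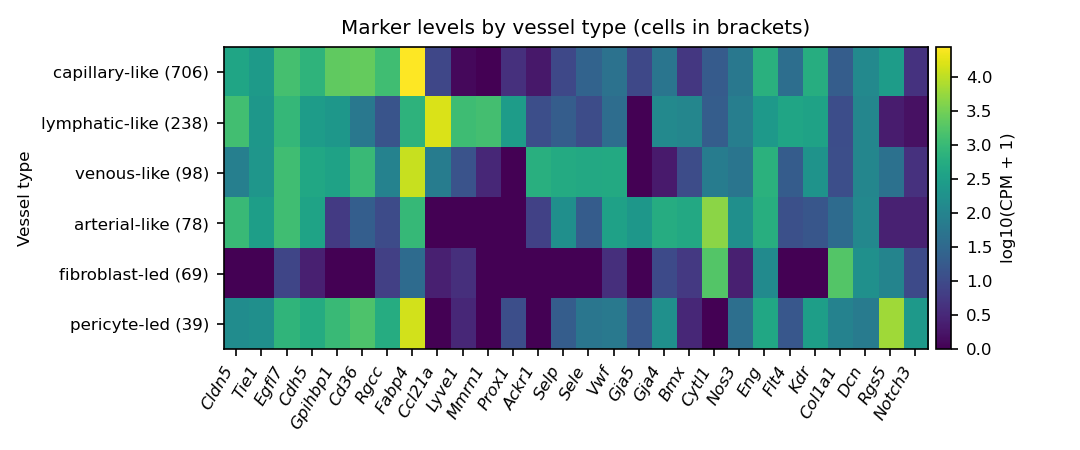
Heat map of 28 marker genes (columns) in the 6 types of cells inside the endothelial rule (rows), colour giving log10 of CPM plus 1 over the pooled cells of each type. Gpihbp1 and Cd36 are highest in the capillary-like row, Ccl21a and Lyve1 in the lymphatic-like, Ackr1 and Sele in the venous-like and Gja5 and Cytl1 in the arterial-like.

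In the pooled cells of each type, levels differed by orders of magnitude. Gpihbp1 was at 2338 CPM in capillary-like cells and 4.74 in arterial-like cells, and Rgcc, a cell cycle regulator abundant in capillaries, was at 1207 and 9.49. Cxcl12, a chemokine, was at 3520 CPM in capillary-like cells and at most 310 in the other vessel types. Kdr was lowest in arterial-like cells, at 14.2 CPM against 593 in capillary-like cells. Capillary-like cells thus carried lipid uptake, VEGF receptor and Cxcl12 RNA together. A smaller capillary-like cluster of 101 cells, led by Thrsp, Timp4, Lpl and Tcf15, came from 5 libraries, and 39.6% of it was from a single library.

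Lymphatic-like cells showed Ccl21a, which has near-identical gene copies, at 15825 CPM against 7.80 in capillary-like cells. The receptor Lyve1 was at 1182 CPM, the transcription factor Prox1 at 286 and the VEGF-C receptor Flt4 at 418, against 0.236, 3.07 and 39.5 in capillary-like cells. Cldn5, a tight junction protein, was highest in lymphatic-like (1250 CPM) and arterial-like cells (1023) and lowest among vessel types in venous-like cells (82.9).

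Several leukocyte-capture genes were highest in venous-like cells. The chemokine-binding receptor Ackr1 stood at 641 CPM, against at most 10.8 in the other vessel types. Selp and Sele, the selectins that tether rolling leukocytes, stood at 531 and 490 CPM, and Vwf, which binds platelets, at 505. Vcam1 and Icam2, adhesion molecules of the same list, were instead highest in arterial-like cells, at 1230 and 601 CPM against 808 and 294 in venous-like cells. The class II gene Cd74 stood at 538 CPM in venous-like cells against 35.2 in capillary-like and 179 in arterial-like cells, but over all endothelial cells 19 cells held 647 of its 848 UMIs. The class I genes H2-D1 and H2-K1 were highest in arterial-like cells, at 2947 and 1407 CPM. The fenestral diaphragm gene Plvap stood at 2755 CPM in venous-like cells and at 384 to 540 in the other vessel types. Leukocyte transcripts also gathered in venous-like cells, whose leading genes included Cd14, S100a9 and Il1b. They held 82.0% of C1qb, 76.1% of Lyz2, 75.9% of S100a9 and 90.3% of Csf1r UMIs of all endothelial cells. S100a9 lay in 6.12% of venous-like cells, and 7.14% of these cells had top Scrublet scores. The cluster had 0 of 13 leukocyte markers. The part of leukocyte RNA in its levels was not tested.

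Arterial-like cells were led by Cytl1 (4780 CPM), Clu (4465) and the Wnt inhibitor Sfrp1 (376, against at most 7.23 in the other vessel types). Gap junction genes of arteries, Gja5 and Gja4, stood at 229 and 555 CPM. Edn1, the vasoconstrictor endothelin, stood at 1542 CPM, against 102 in lymphatic-like and 304 in venous-like cells, and Nos3 was at 163 against 52.8 to 78.4. Among matrix genes, Fn1 (587 CPM), Fbln5 (1248), Eln (813) and the calcification inhibitor Mgp (22996) were at their highest of the 4 vessel types. Part of the arterial list was instead highest elsewhere. Sox17, Hey1, Dll4, Notch4 and Nrp1 were highest of the 4 vessel types in capillary-like cells, and Efnb2, Notch1 and Unc5b in lymphatic-like cells. Nrp1, for instance, was at 210 CPM in arterial-like against 759 in capillary-like cells. These levels are descriptions of the clusters that the same genes helped to define.

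TGF-beta and BMP genes formed a pattern of their own in endothelial cells. Eng, the co-receptor whose loss causes hereditary haemorrhagic telangiectasia, was at 469 ± 172 CPM (SD, n = 15), against 30.7 in VSMCs, 102 in fibroblasts and 19.6 in leukocytes. Its level in 15 of 15 endothelial libraries lay above the highest library of any other class. Acvrl1, the type 1 receptor ALK1, was at 152 ± 53.8 CPM against 14.4, 55.3 and 37. In 13 of 15 endothelial libraries it lay above the highest library of any other class. Tgfbr2 was at 125 ± 49.3 CPM, close to fibroblasts (111) and leukocytes (103). Tgfbr1, the type 1 receptor ALK5, showed the opposite order, with 22.6 ± 9.87 CPM in endothelial cells against 56.3 in VSMCs and 45.9 in fibroblasts.

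Among intracellular genes, Smad1, which carries BMP signals, was at 116 ± 46.5 CPM (SD, n = 15), against 34.3 in VSMCs and 31.3 in fibroblasts. Smad1 in 15 of 15 endothelial libraries lay above the highest library of any other class. Its target Id1, an inhibitor of differentiation factors, was at 534 ± 135 CPM against 233 and 125. For Id1, 12 of 15 endothelial libraries lay above the highest library of any other class. Id3 did not separate the classes, with means of 1604 CPM in endothelial cells, 1504 in VSMCs and 1597 in fibroblasts. Pmepa1, a target of the Smad2 and Smad3 branch, was lower in endothelial cells, at 248 ± 122 CPM against 924 in VSMCs. For the ligands, Bmp6 was at 66.9 ± 45.8 CPM, against 0.346 in VSMCs and 6.91 in fibroblasts, and 14 of 15 endothelial libraries lay above the highest library of any other class. Bmp4 was at 125 ± 105 CPM, Tgfb1 at 165 ± 56, and Tgfb2 at 36.1 ± 31.5 against 151 in VSMCs. Fibroblasts, leukocytes and VSMCs were taken with their own marker rules, and these values are given without a test.

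**Figure D2:**
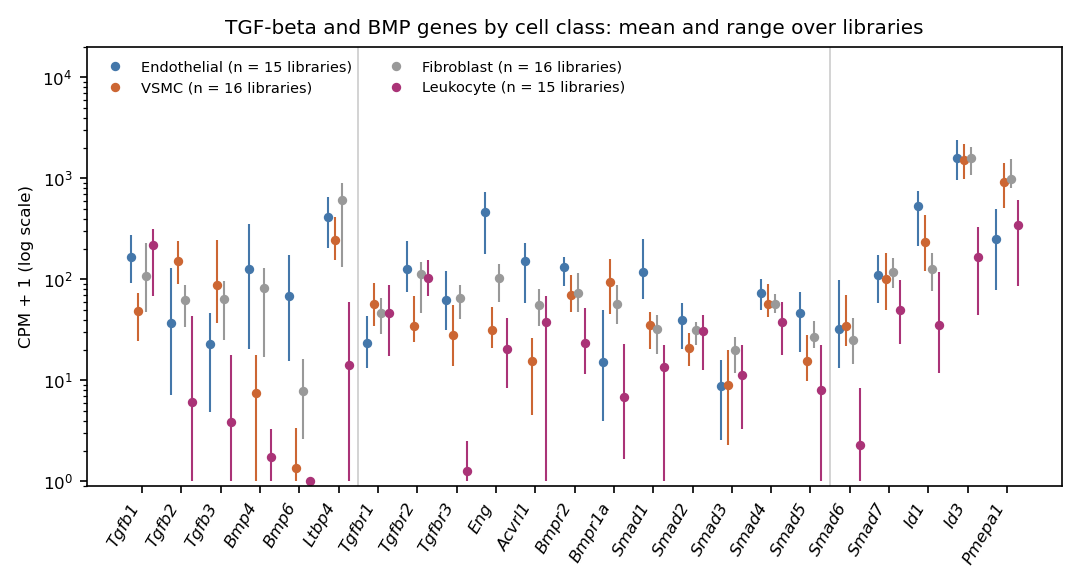
Levels of 23 TGF-beta and BMP pathway genes in 4 cell classes, as CPM plus 1 on a log axis; points are means over libraries (15 for endothelial cells and leukocytes, 16 for VSMCs and fibroblasts) and coloured lines run from the lowest to the highest library, with grey lines between ligands, receptors with their Smads, and feedback or target genes. Eng, Acvrl1, Smad1 and Bmp6 sit highest in endothelial cells, and Tgfbr1, Tgfb2 and Pmepa1 sit lower there than in VSMCs.

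Vessel types differed in these genes too. Id1 was at 839 CPM in capillary-like cells, 482 in arterial-like, 381 in venous-like and 119 in lymphatic-like cells. Smad6 and Smad7, the inhibitory Smads, were lowest in lymphatic-like cells (1.81 and 10.8 CPM) and highest in arterial-like cells (115 and 226). Tgfbr2 and Smad1 ran the other way, at 298 and 235 CPM in lymphatic-like against 47.4 and 22.1 in arterial-like cells. Bmp4 and Bmp6 were highest in arterial-like cells, at 530 and 237 CPM, against 37.3 and 52.0 in capillary-like cells. Pmepa1 was at 1909 CPM in the fibroblast-led cells and at 63.5 to 370 in the vessel types, so that 69 cells contributed to its endothelial mean out of proportion to their number.

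The share of endothelial cells was compared between genotypes next. At 18 weeks the 7 libraries labelled Smad3SmKO held 0.475% as the lowest, 2.51% as the median and 7.75% as the highest share of kept cells, and the 5 Smad3+/+ libraries held 2.24%, 2.74% and 5.60%. The groups overlapped along most of their range. Their means were 3.17% ± 2.31 (SD, n = 7) and 3.29% ± 1.38 (SD, n = 5), a difference of -0.118 percentage points (exact two-sided permutation test over 792 arrangements, p = 0.926). The difference was 1.55 points among libraries digested for 30 min (exact permutation p = 0.371) and -2.42 points among those digested for 60 min (exact permutation p = 0.2, where 0.1 is the smallest possible), and 0.350 points without the 2 controls whose tracer label the RNA contradicts. Within batches the differences were 0.720, 1.09, 4.25 and -1.48 points in batches 1, 2, 3 and 6, and -0.0893 at 10 weeks in batch 4. Digestion time gave 2.54% ± 1.89 (SD, n = 5) at 60 min and 3.71% ± 1.89 (SD, n = 7) at 30 min at 18 weeks (difference -1.17 points, exact permutation p = 0.346). The 10-week shares were 0.777% and 1.86% in Smad3+/+ mice and 1.48% and 0.977% in the libraries labelled Smad3SmKO. No test is given for 2 libraries against 2.

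**Figure D3:**
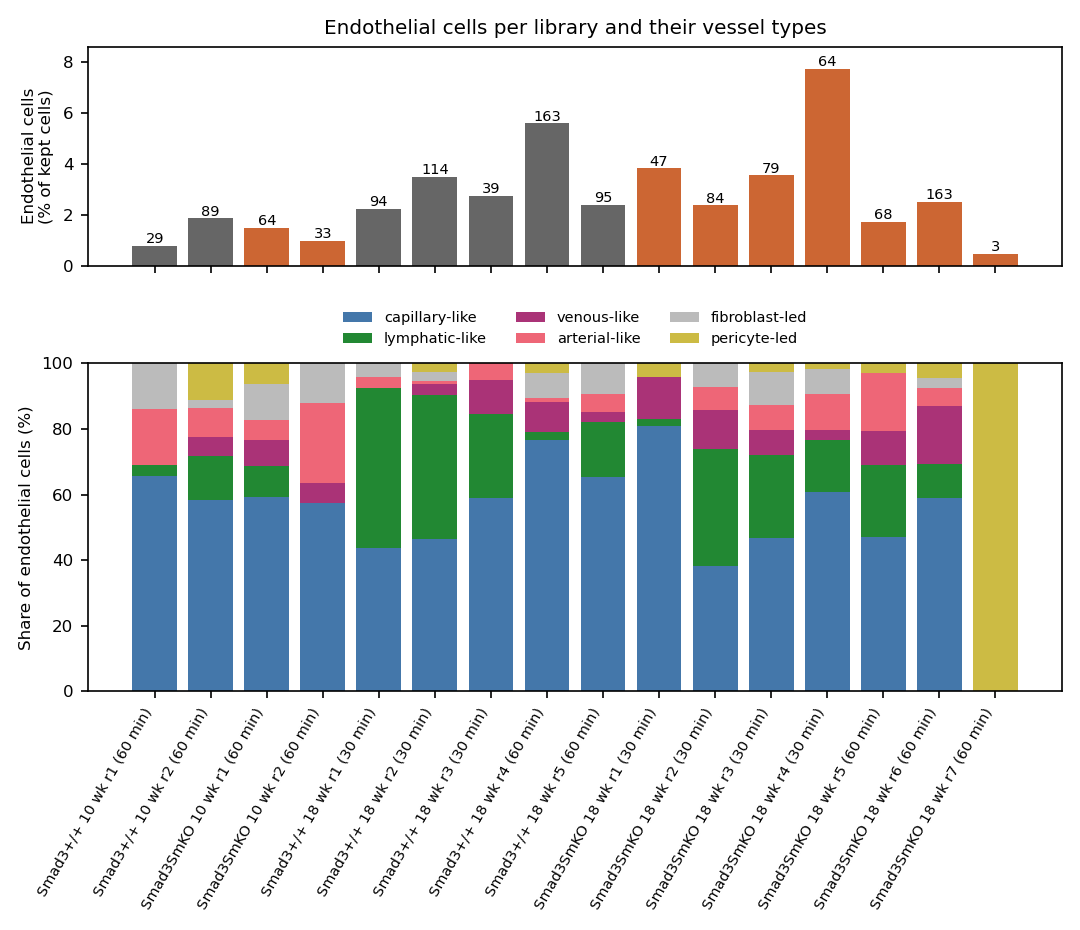
Endothelial cells as a percentage of kept cells in each of the 16 libraries, with the number of cells above each bar, and the division of those cells among 6 types as stacked percentages. Shares run from 0.475% to 7.75%, and capillary-like cells are the largest type in 14 of the libraries.

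Vessel type shares varied widely between libraries, and none differed between genotypes past the threshold. Over the 15 libraries with at least 10 endothelial cells, capillary-like cells made up 38.1% to 80.9% (median 58.9%) and lymphatic-like cells 0% to 48.9%. At 18 weeks, arterial-like cells averaged 8.14% in 6 libraries labelled Smad3SmKO and 3.14% in 5 Smad3+/+ libraries, a difference of 5.00 points (exact permutation test over 462 arrangements, adjusted p = 0.279). Venous-like cells averaged 10.6% and 5.23% (difference 5.35 points, exact permutation, adjusted p = 0.279), and lymphatic-like cells 18.5% and 27.5% (difference -9.00 points, adjusted p = 0.503 by the same permutation test). Without the 2 doubted controls the differences were 5.08, 5.99 and -20.9 points for arterial-like, venous-like and lymphatic-like cells (exact permutation, adjusted p = 0.321, 0.321 and 0.286). Arterial-like shares were 0, 7.14, 7.59, 10.9, 17.6 and 5.52% in replicates 1 to 6 labelled Smad3SmKO, and 3.19, 0.877, 5.13, 1.23 and 5.26% in the controls. The groups overlapped through replicate 1 labelled Smad3SmKO, which had 47 endothelial cells and 0 of this type, a count that allows a share of up to 6.38%, and the call depends on it. Over libraries left out the difference ran from 3.10 to 6.63 points, with adjusted p-values of the exact permutation test from 0.0476, without that replicate, to 0.586, and permutation within batches gave an unadjusted p of 0.222 over 36 arrangements for all libraries. Each such share rests on 39 to 163 cells, so 0 to 12 arterial-like cells decide it, and the 95% Wilson interval of the highest, 12 of 68 cells, ran from 10.4% to 28.4% for counting error only. Capillary-like, fibroblast-led and pericyte-led shares gave adjusted p-values of 0.906, 0.987 and 0.377 by exact permutation over the 6 types.

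Gene levels were compared between genotypes on UMIs summed per library, with batch in the model, by edgeR's quasi-likelihood test over 8086 genes. At 18 weeks 1 gene passed an adjusted p of 0.05 (0.0124% of genes tested), and 298 (3.69%) had an unadjusted p under 0.05. That gene was Il1b, which encodes the inflammatory cytokine interleukin 1 beta (chromosome 2, 129364570 to 129371139, minus strand, mm10). Its normalised CPM was 1.75, 1.24, 2.79, 0.599 and 1.57 in Smad3+/+ replicates 1 to 5 and 161, 0, 1.94, 0, 170 and 104 in replicates 1 to 6 labelled Smad3SmKO. The rise lay in replicates 1, 5 and 6, while replicates 2, 3 and 4 were at or near the control level, so the groups overlapped. The fitted log2 difference was 5.41 (SE 0.70, edgeR Benjamini-Hochberg adjusted p = 0.0211). Replicate 5 was the only library of batch 5 in the fit, and that batch held no control. The batch term took up its level, so replicate 5 did not inform this difference. Each control library held 1 Il1b UMI, and replicates 1, 5 and 6 labelled Smad3SmKO held 44 UMIs in 1 cell, 112 in 9 cells and 92 in 8 cells. Over all libraries 90.6% of 255 Il1b UMIs lay in 4 cells, and 91.8% lay in venous-like cells, 6.12% of which held Il1b. Within batches the log2 difference after adding 5 CPM was -0.18, 4.41, -0.32 and 4.16 in batches 1, 2, 3 and 6. The call was also lost with DESeq2, without the batch term, with at least 3 UMIs of Pecam1 and Cdh5 required, without cells of top Scrublet score, and on leaving out any of Smad3+/+ replicates 3, 4 and 5 or of replicates 1 and 6 labelled Smad3SmKO. Without the 2 doubted controls Il1b did not pass and Sdc1, the gene of a heparan sulphate proteoglycan, did. The summed level of the leukocyte marker list overlapped between the groups. It ran from 16.6 to 479 CPM in the libraries labelled Smad3SmKO and from 26.9 to 235 in the controls, with 11 of its 13 genes detected, Cd3e at 0 and Ptprc at 0 by the rule. Its part in the result was not tested.

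At 10 weeks 3 genes passed (0.0371% of genes tested), all higher in the libraries labelled Smad3SmKO and all of the major histocompatibility class II pathway, which presents antigen to T cells, and 285 (3.52%) had an unadjusted p under 0.05. H2-Eb1, a class II beta chain, was at 8.57 and 3.58 normalised CPM in Smad3+/+ mice and 213 and 315 in the others. H2-Aa, an alpha chain, was at 8.57 and 3.58 against 174 and 287. Cd74, the invariant chain, was at 8.57 and 50.2 against 505 and 1464. For each of the 3, chosen because they passed, both libraries lay above both controls, which held for 15.2% of all genes tested. Their log2 differences were 5.62 for H2-Eb1 (SE 0.65, edgeR adjusted p = 0.00362), 5.41 for H2-Aa (SE 0.80, adjusted p = 0.0314) and 4.76 for Cd74 (SE 0.75, adjusted p = 0.0448). Few cells carried them: H2-Eb1 gave 1 UMI in each control and 49 UMIs in 4 cells and 46 in 2 cells of the others, and 1 cell alone held 210 of the Cd74 UMIs. The related gene H2-Ab1 was at 0 and 10.7 against 95.7 and 198 normalised CPM (log2 difference 4.23, edgeR adjusted p = 0.638). The leukocyte list summed to 41.9 and 131.8 CPM in the controls and 199 and 507 CPM in the others, with Cd3e again at 0, and its part in the result was not tested. No gene passed without Smad3+/+ replicate 2 of 10 weeks, with at least 3 UMIs of Pecam1 and Cdh5 or both genes required, with Myh11 and Dcn at 0, without cells of top Scrublet score or in capillary-like cells, and 1 or 2 passed on leaving out any of 8 other libraries. Limited to capillary-like cells, Cd74 gave a log2 difference of -1.40, and without the cells of top Scrublet score it gave -0.26.

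**Figure D4:**
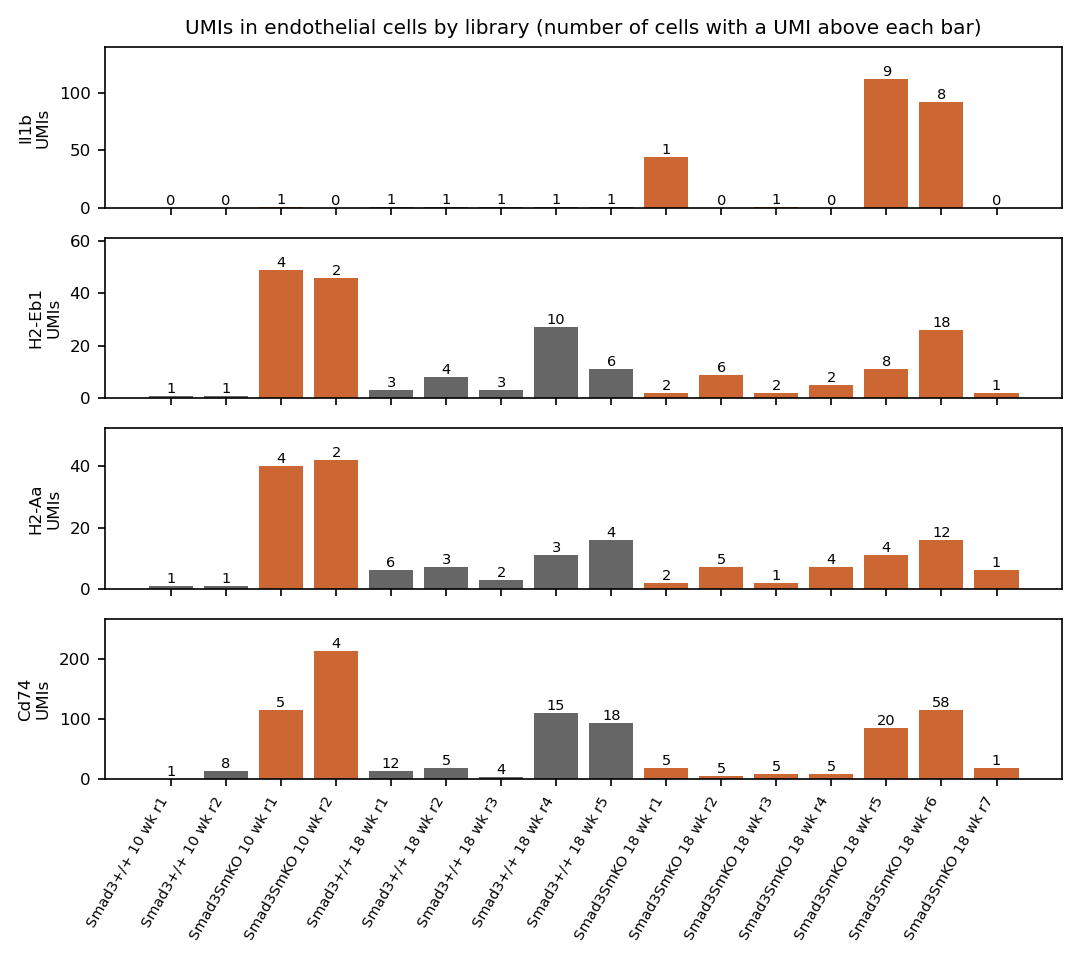
UMIs of Il1b, H2-Eb1, H2-Aa and Cd74 summed over the endothelial cells of each library, with the number of cells holding a UMI above each bar. The Il1b bars stand high in 3 of the libraries labelled Smad3SmKO at 18 weeks, and the class II bars in both of those at 10 weeks, in each case from few cells.

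At 18 weeks the class II genes did not repeat this: log2 differences were 0.53 for H2-Eb1, 0.17 for H2-Aa, 0.23 for Cd74 and 0.42 for H2-Ab1. The difference between the 18-week and 10-week effects was tested in the same fit. No gene passed (0% called), 295 (3.65%) had an unadjusted p under 0.05 and DESeq2 called 1. H2-Eb1 had a difference of -5.09 between the effects (edgeR adjusted p = 0.134).

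No gene of the TGF-beta lists passed in endothelial cells at either time. Of 20 TGF-beta and BMP targets listed, 18 matched a symbol in the files and 17 were tested at 18 weeks, none passed and 14 were above 0, with a median log2 difference of 0.29, where all genes had a median of 0.01 and 51.2% above 0. Receptors (12 of 14 tested, 6 above 0, median 0.10) and ligands with their binding proteins (11 of 12 tested, 6 above 0, median 0.10) likewise gave none. Eng differed by 0.25 (SE 0.22), Acvrl1 by -0.05 (SE 0.19) and Tgfbr2 by -0.06 (SE 0.23) on the log2 scale, none past the threshold. Id1 differed by 0.03 (SE 0.21) and Id3 by 0.32 (SE 0.17). Smad6 had the lowest unadjusted p of the pathway, 0.0318 by edgeR's quasi-likelihood test before adjustment, with a log2 difference of 0.92 (SE 0.39). At 10 weeks targets gave 11 of 17 above 0 (median 0.23), receptors 6 of 12 (median 0.06) and ligands 2 of 11 (median -0.20), with none called.

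Pmepa1, a feedback inhibitor of the Smad2 and Smad3 branch, was called lower in VSMCs and was compared with its level in endothelial cells. In VSMCs at 18 weeks its normalised CPM was 776, 1368 and 1388 as the lowest, median and highest Smad3+/+ library and 417, 682 and 798 in the 7 libraries labelled Smad3SmKO, with a log2 difference of -0.95 (SE 0.13, edgeR adjusted p = 0.0119). In endothelial cells it was 75.4, 249.6 and 481 against 73.1, 214 and 474, so the groups covered the same range, and the log2 difference was -0.13 (SE 0.26). In these fits the libraries of batch 5, which held no control, did not inform the differences. The difference of the Pmepa1 effects between the classes was 0.87 (SE 0.26, edgeR Benjamini-Hochberg adjusted p = 0.893 over 9723 genes), and 1.16 without the doubted controls (edgeR adjusted p = 0.144). Over all genes 1 passed for that difference (0.0103%), and 410 (4.22%) had an unadjusted p under 0.05. For the TGF-beta targets as a list, all 18 that matched were tested in both classes, none passed and 15 had an endothelial effect above the VSMC effect, with a median of 0.51 against 0.02 over all genes. Smad7 gave 0.73 within it. Both classes come from the same libraries, which the model held as blocks.

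The gene that passed against VSMCs was Igkc, an immunoglobulin light chain, with a difference of 5.03 (SE 0.50, edgeR adjusted p = 0.00184). It had UMIs in the endothelial cells of 3 of the 18-week libraries in the fit, at 22.3 and 108 normalised CPM in Smad3+/+ replicates 3 and 5 and 50.7 in replicate 6 labelled Smad3SmKO. Without that last library the difference was -0.068, and without the 2 doubted controls it was -0.069. Against fibroblasts 4 genes passed (0.0288% of 13913 tested), and 577 (4.15%) had an unadjusted p under 0.05. Adamtsl1, a secreted matrix glycoprotein, was at 196, 156, 75.4, 19.8 and 86.2 normalised CPM in endothelial cells of Smad3+/+ replicates 1 to 5 and 18.3, 133, 68, 42.7, 59.3 and 40.6 in replicates 1 to 6 labelled Smad3SmKO, so the groups overlapped. Its fibroblast level was 9.65 ± 2.36 (SD, n = 5) against 13.3 ± 6.19 (SD, n = 7), and the difference of effects was -1.77 (SE 0.26, edgeR adjusted p = 0.00449), or -1.86 without the doubted controls, where it also passed. Of 603 Adamtsl1 UMIs 75.6% were in lymphatic-like cells and 0.663% in capillary-like cells. Adamtsl1 within batches gave endothelial log2 differences of -0.93, -1.79, -1.76 and -0.35 in batches 1, 2, 3 and 6, and 0.50 in batch 4 at 10 weeks. The other 3 genes rest on single cells. C1qb, a complement gene of macrophages, had 83 of 133 UMIs in 1 cell, and the haemoglobin genes Hbb-bs and Hba-a2 had 5648 of 5672 and 2153 of 2163 in 1 cell of Smad3+/+ replicate 4.

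Gene groups of endothelial function held no called gene at 18 weeks. Nitric oxide and endothelin genes (11 of 13 tested, 7 above 0) had a median log2 difference of 0.07. Nos3 differed by -0.09 (SE 0.21). Edn1 was at 75.8, 149.8 and 231.7 normalised CPM as the lowest, median and highest Smad3+/+ library and at 76.7, 379 and 626 in the 6 libraries labelled Smad3SmKO. The upper part of that range lay above the controls and the lower part within it, and the log2 difference was 1.09 (SE 0.46, edgeR adjusted p = 1.00). At 10 weeks Edn1 differed by -1.16, in the other direction and also not past the threshold. Edn1 was richest in arterial-like cells, whose share is given above.

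Shear-response genes (12 of 12 tested, 7 above 0, median 0.06), VEGF genes (15 of 16, 9 above 0, median 0.00) and Notch genes (13 of 14, 10 above 0, median 0.15) stayed near the median of all genes. Endothelial identity genes gave 14 of 20 above 0 with a median of 0.11, junction genes 8 of 11 with 0.09, basement membrane genes 13 of 20 with 0.13, and lipid genes 10 of 13 with 0.09. Coagulation genes (9 of 12 tested, 6 above 0) had a median of 0.01 and integrins (14 of 15 tested, 9 above 0) of 0.12. Interferon-induced genes had all of 14 above 0 with a median of 0.39, none past the threshold, and at 10 weeks 6 of 14 were above 0 with a median of -0.05. Leukocyte adhesion and antigen presentation genes gave 10 of 14 above 0 with a median of 0.20 at 18 weeks. Genes of endothelial-to-mesenchymal transition (15 of 16 tested, 10 above 0) had a median of 0.23, and proliferation genes (6 of 10 tested, 2 above 0) of -0.24.

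Vessel type lists held no called gene either. Lymphatic genes had 8 of 9 below 0 and a median log2 difference of -0.81, and Prox1 differed by 0.02. The summed lymphatic level ranged from 342 to 17474 CPM in controls and from 695 to 9657 in the libraries labelled Smad3SmKO, so the groups overlapped. Arterial genes had 12 of 16 above 0 (median 0.21), venous genes 6 of 10 (median 0.17), capillary genes 9 of 13 (median 0.11) and endocardial genes 3 of 7 (median -0.03). Marker lists of other cells had medians of 0.53 for VSMCs (10 of 10 tested, 6 above 0), -0.11 for fibroblasts (12 of 12, 6 above 0), 0.88 for pericytes (7 of 8, 6 above 0) and 0.14 for leukocytes (7 of 13, 4 above 0). Dissociation-response genes gave 19 of 20 above 0 with a median of 0.20. Of cardiomyocyte markers 3 of 10 were tested, with 0 above 0 and a median of -0.60, and 1 of 8 mesothelial and 0 of 7 Schwann cell markers were tested. Summed VSMC markers ranged from 337 to 1002 CPM in controls and from 224 to 2009 in the others.

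Besides Il1b, the lowest unadjusted p-values at 18 weeks belonged to Cda (log2 difference -1.10, SE 0.22), which deaminates cytidine, and Tmem252 (0.95, SE 0.19), both with an edgeR adjusted p of 0.402. Sfrp1 was at 2.79, 7.45 and 17.2 normalised CPM as the lowest, median and highest Smad3+/+ library and at 7.31, 35.6 and 62.2 in those labelled Smad3SmKO. That is a log2 difference of 2.60 (SE 0.55, edgeR adjusted p = 0.569) in a gene highest in arterial-like cells. Itgb5, an integrin chain that binds vitronectin, averaged 39.4 ± 8.4 (SD, n = 5) against 69.2 ± 32.8 (SD, n = 6) normalised CPM (log2 difference 1.00, SE 0.23, edgeR adjusted p = 0.853).

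More genes passed for digestion time than for genotype, but the fits are not alike, since the digestion fit held no batch term. At 18 weeks 4 libraries digested for 60 min were set against 7 digested for 30 min, with genotype in the model. Of 8269 genes 150 passed (1.81%): 127 were higher at 60 min (1.54%) and 23 lower (0.278%), and 1200 (14.5%) had an unadjusted p under 0.05. The times fall in different batches, and every 60-min library but no 30-min one was labelled as carrying the tracer, so time, batch and tracer label cannot be told apart. Libraries of the same batch entered this fit as independent, so its p-values can be too small. Called genes that were higher had a median log2 difference of 1.41 (0.73 to 5.10), and for 96 of the 127 every 60-min library lay above every 30-min library, which held for 197 (2.38%) of all genes. For 18 of the 23 lower genes every 60-min library lay below every 30-min library, which held for 78 (0.943%) of all genes.

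Immediate early genes, which are switched on within minutes of stress, were among the genes called higher. Of 20 dissociation-response genes 10 passed, all 20 were above 0 and the median log2 difference was 1.18, against -0.02 over all genes. Ier3, a survival gene induced by stress, had 252, 408 and 526 normalised CPM as the lowest, median and highest of the 7 libraries at 30 min and 2630, 1794, 1435 and 2792 in the 4 at 60 min, and the times did not overlap. Its log2 difference was 2.47 (SE 0.23, edgeR adjusted p = 0.000243). Atf3, a stress transcription factor, differed by 2.19, Junb by 1.51, Fos by 1.36 and Jun by 1.03, all called. Egr1, of the same class, differed by 1.24 and was not called (edgeR adjusted p = 0.118).

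Genes of cytokines and of their signalling were also among those called higher. Il6, which encodes interleukin 6, had 2.48, 11.2 and 19.3 normalised CPM as lowest, median and highest at 30 min and 119, 42.3, 111 and 145 at 60 min, without overlap (log2 difference 3.51, SE 0.35, edgeR adjusted p = 0.000328). Irf1, an interferon regulatory factor, had 47.2, 67 and 107 against 551, 307, 269 and 974, again without overlap (2.91, SE 0.30, edgeR adjusted p = 0.000339). Cxcl1, a neutrophil chemokine, had 22.7, 54.2 and 214 against 1096, 398, 823 and 957, also separated (3.52, SE 0.45, edgeR adjusted p = 0.00183). Its neighbour Cxcl2 differed by 4.08 (SE 0.73, edgeR adjusted p = 0.0112). Over all libraries Cxcl2 stood at 2182 CPM in venous-like cells, 33.7% of which held it, and at 88.6 to 115 in the other vessel types. Socs1, a feedback inhibitor of cytokine signalling, differed by 2.62 (SE 0.31, edgeR adjusted p = 0.00138).

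Among the leukocyte adhesion and antigen presentation genes 4 of 14 tested were called higher, namely Icam1, Sele, Cxcl1 and Cd74, and all 14 were above 0 with a median of 1.03. Icam1, an integrin ligand on activated endothelium, had 72, 161 and 223 normalised CPM at 30 min and 719.6, 521, 322.6 and 809 at 60 min, with no overlap (log2 difference 1.90, SE 0.33, edgeR adjusted p = 0.0107). Sele had 0, 7.01 and 25.3 against 18.8, 81.8 and 286 as lowest, median and highest, so the times overlapped for this gene (3.81, SE 0.66, edgeR adjusted p = 0.0106). Vcam1 differed by 1.26 and Selp by 1.98, both short of the threshold (edgeR adjusted p = 0.276 and 0.0953). Nfkbia, which encodes the inhibitor that NF-kappaB itself induces, had 517, 693 and 862 against 1700, 1146, 1161 and 2261, separated at every library (1.16, SE 0.22, edgeR adjusted p = 0.0138). Leukocyte markers differed by a median of 3.61 over 4 of 13 tested, S100a8 and S100a9 being called. Their summed level was 16.6 to 202 CPM at 30 min and 48.8 to 479 at 60 min. S100a9 had 173 of its 286 UMIs in 1 cell. Their part in the other changes was not tested.

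Il6, Cxcl1, Cxcl2 and Nfkbia are textbook targets of NF-kappaB, the transcription factor of acute inflammation, and their promoters are shown for that reason. They were taken from the called genes that hold a match, and Icam1 and Sele, also called and also targets, hold none in the window searched. Capitals mark matches on either strand to GGG, then any 3 bases, then TTCC, a form of the NF-kappaB site. They were read from RefSeq GRCm38.p6, whose reference strain is C57BL/6J and not the strain of these mice, and run 5′ to 3′ over the 120 bases before each transcription start: chr5:30012994-30013113 for Il6, chr5:90891125-90891244 for Cxcl1 and chr5:90903779-90903898 for Cxcl2 on the plus strand, and chr12:55492648-55492767 for Nfkbia on the minus strand. Adjacent capitals in Cxcl1 and Cxcl2 join overlapping matches.
Il6: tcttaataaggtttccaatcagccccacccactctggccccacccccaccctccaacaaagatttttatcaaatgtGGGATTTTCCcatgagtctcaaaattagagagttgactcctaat
Cxcl1: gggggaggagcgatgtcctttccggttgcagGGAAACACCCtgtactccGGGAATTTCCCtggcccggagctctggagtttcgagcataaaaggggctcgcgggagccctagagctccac
Cxcl2: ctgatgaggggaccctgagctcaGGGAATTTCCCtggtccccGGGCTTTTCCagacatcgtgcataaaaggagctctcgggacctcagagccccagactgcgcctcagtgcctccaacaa
Nfkbia: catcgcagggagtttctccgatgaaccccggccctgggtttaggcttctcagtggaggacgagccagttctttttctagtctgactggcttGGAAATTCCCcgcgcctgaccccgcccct

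Over windows of 300 bases, from 250 before to 50 after the start, 17 of 102 called higher genes with a promoter (16.7%) held such a match, against 406 of 6510 genes tested (6.24%) and 1493 of 27025 promoters (5.52%). None of the 16 called lower genes with a promoter did. A match is a run of letters in this window and says nothing of whether a factor was bound there.

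Genes lower at 60 min were fewer. Cldn5 had 569, 716 and 1026 normalised CPM as lowest, median and highest at 30 min and 332, 389, 361 and 391 at 60 min, with no overlap (log2 difference -1.03, SE 0.19, edgeR adjusted p = 0.0121). The mitochondrial genes mt-Co2, mt-Co3, mt-Nd2 and mt-Atp6 fell, with log2 differences of -0.91, -1.02, -1.12 and -1.14, all called. Cdh5, Pecam1, Nos3 and Klf2 differed by 0.21, 0.01, 0.02 and 0.26, none past the threshold. Lymphatic genes had 9 of 9 below 0 (median -1.11), none called. Lymphatic-like cells, where Cldn5 is highest, made up 2.13% to 48.9% of endothelial cells at 30 min and 2.45% to 22.1% at 60 min. Within capillary-like cells alone 200 of 5245 genes tested (3.81%) passed for digestion, and 95 of them were among the 150 called over all endothelial cells.

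VEGF genes gave 1 called of 15 tested, Vegfa, with a log2 difference of 1.58 (edgeR adjusted p = 0.0451), and interferon-induced genes 1 of 14, Iigp1. Nitric oxide and endothelin, shear-response and Notch genes gave none. TGF-beta targets gave 3 called genes of 15 tested with digestion time, Id3, Skil and Nr4a1, at a median of 0.18. Id3 had 912, 1224 and 1433 normalised CPM as lowest, median and highest at 30 min and 1855, 2058 and 2726 at 60 min, without overlap (log2 difference 0.90). Id1 and Smad7 differed by 0.18 and 0.34 and were not called. Receptors gave 0 of 12, with a median of -0.10, and ligands 0 of 11, with -0.37.

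The 4 libraries at 10 weeks, all digested for 60 min, were outside that fit. For 122 of the 127 genes called higher (96.1%), their mean lay above the 30-min mean, as it did for 42.9% of all genes tested. For 24 genes (18.9%) every 10-week library lay above every 30-min one, against 4.24% of all genes, and for the 23 called lower 5 means (21.7%) lay above. The called genes were chosen by their levels in the same 30-min libraries, so these counts were favoured in advance. All genes tested were not so chosen and are no like reference, so no support is drawn from the counts. Age and batch also differ between these libraries, and their parts and that of digestion cannot be told apart. Ier3 was at 514, 2207, 1923 and 1464 normalised CPM in them, Il6 at 8.57, 219, 52.2 and 109, and Cldn5 at 557, 287, 248 and 287, where the first value is Smad3+/+ replicate 1, which had 29 endothelial cells and lay nearest the 30-min libraries. Without the 2 doubted controls at 18 weeks 5 genes passed for digestion, among them Ier3, Il6 and Irf1.

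**Figure D5:**
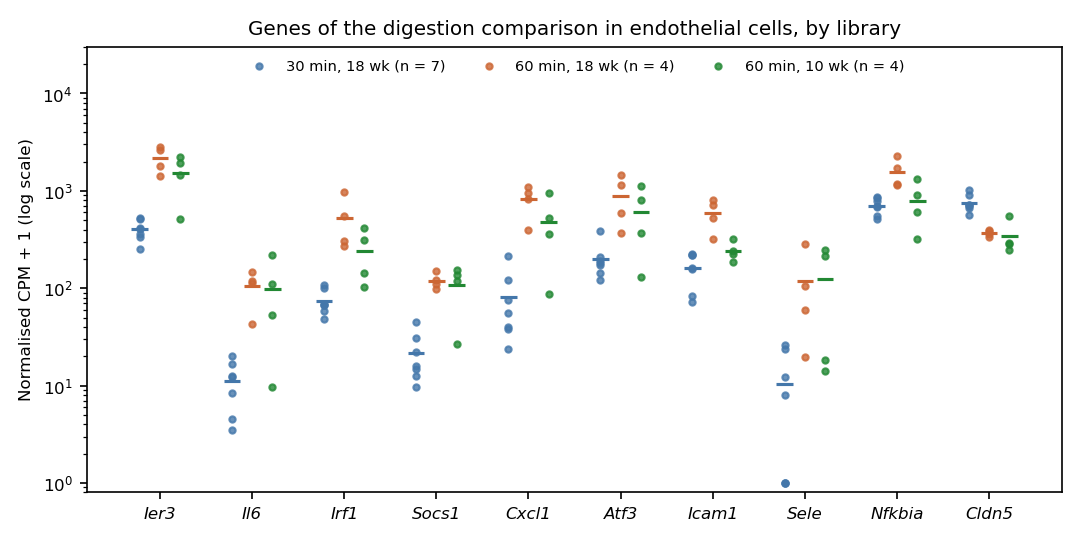
Normalised CPM plus 1, on a log axis, of 10 genes in the endothelial cells of each library, grouped as 18 weeks at 30 min (7 libraries), 18 weeks at 60 min (4) and 10 weeks at 60 min (4). Ier3, Il6, Irf1, Cxcl1, Icam1 and Nfkbia lie higher in every 60-min library at 18 weeks than in any 30-min library, and Cldn5 lies lower.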

How the data were processed

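Single-cell libraries were made with the 10x Genomics 3′ v3 chemistry, which marks each captured molecule and reads it near its 3′ end. The values deposited by the authors are raw UMI counts per gene and barcode. Per the labels, Cell Ranger version 6 and Seurat version 4 were used with the mm10 genome plus GFP; the matrix headers name Cell Ranger 4.0.0. Filtering to cells followed the study's limits. Deposited totals ran from 12539539 to 52843031 UMIs per library, and endothelial cells gave 50721 UMIs in the smallest. UMI counts were summed over the endothelial cells of each library. Of 16 libraries, 15 had at least 10 such cells and entered tests, and replicate 7 labelled Smad3SmKO at 18 weeks, with 3 cells, entered shares only. edgeR 4.0.16 (TMM scaling, filterByExpr, quasi-likelihood test, Benjamini-Hochberg adjustment over all genes tested) was run in R 4.3.3, with batch as a covariate for genotype and genotype as a covariate for digestion. Batch 5 held no Smad3+/+ library, so with batch in the model its libraries did not inform the genotype differences. A gene was called at an adjusted p under 0.05. DESeq2 1.42.0 was an alternative. Shares were compared by exact two-sided permutation over libraries. Each library is 1 mouse. Clusters came from 2000 variable genes, 20 principal components, 15 neighbours and Leiden resolution 0.3 in scanpy 1.11.5. Dissociation, ribosomal, mitochondrial and rule genes, among others, were left out first. Levels were centred within each library of at least 10 endothelial cells. How far the vessel type shares depend on that centring was not tested. The fits were run on simulated counts with the same spread for every gene, no batch effect and no RNA gathered in few cells. That run therefore does not check calls whose UMIs lie in few cells. The labels carry no replicate numbers, so replicates were numbered in deposit order. Named genes are members of the 30 gene lists, up to 15 called genes of lowest p per direction in each comparison, the 10 of lowest unadjusted p with a mean of at least 20 CPM where fewer than 10 passed, the 25 leading genes of the class and the 10 leading genes of each cluster. The members and the lists were chosen with earlier results of these data known.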

Additional observations from a re-analysis of the deposited data

Results flagged for a closer look

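Effects that differed between cell classes at 18 weeks are given here with their values. The genotype effect on Igkc differed between endothelial cells and VSMCs by 5.03 on the log2 scale. Between endothelial cells and fibroblasts the genotype effect differed by -1.77 for Adamtsl1, -4.20 for C1qb, -8.69 for Hbb-bs and -10.35 for Hba-a2. The values of C1qb, Hbb-bs and Hba-a2 rest on single cells, as given above. Without the doubted controls C1qb was at -1.18 and did not pass. Of 26 groups of 4 to 10 libraries tested for a library standing apart from the rest, 1 did, H2-Aa in Smad3+/+ replicate 5 at 18 weeks with 25.1 normalised CPM, where chance gives about 1 in 20. Outside the comparisons, 1 GFP UMI was counted in the endothelial cells of replicate 2 labelled Smad3SmKO at 10 weeks, a library labelled as lacking the tracer.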

How the results depend on the processing

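Libraries could not be paired by replicate number, since the labels carry none. Batch, which the labels do give, was a term in the genotype fits, and shares were also permuted within batches. For the endothelial share at 18 weeks this exact permutation gave p = 0.972 over 36 arrangements. The number of genes called for genotype at 18 weeks, 1, became 75 without the low-count filter and 0 with DESeq2, with at least 3 UMIs, with both rule genes required, with Myh11 and Dcn at 0, without top Scrublet scores, with capillary-like cells only (chosen after seeing the data), without the batch term and at 30 min only, and ran from 0 to 1 when each library was left out (0 without Smad3+/+ replicates 3, 4 or 5 or replicates 1 or 6 labelled Smad3SmKO). For 10 weeks, 3 became 32 without the low-count filter and 0 with at least 3 UMIs, both genes, Myh11 and Dcn at 0, without top Scrublet scores and in capillary-like cells (0 to 3 over libraries left out). For the difference between times, 0 became 31 without the filter, 1 with DESeq2 and 1 without the batch term (0 to 1 over libraries). Against VSMCs, 1 became 47 without the filter, 4 with both genes, 2 without top Scrublet scores, 13 in capillary-like cells, and 0 without the class by batch term or without the 2 doubted controls (0 to 3 over libraries). Against fibroblasts, 4 became 99 without the filter, 20 with at least 3 UMIs, 32 with both genes, 57 with Myh11 and Dcn at 0, 16 in endothelial clusters only, 1 without top Scrublet scores, 26 in capillary-like cells, 0 without the class by batch term and 108 without the doubted controls (4 to 61 over libraries, highest without Smad3+/+ replicate 4). For digestion, 150 became 258 with DESeq2, 619 without the filter and 5 without the doubted controls (38 without Smad3+/+ replicate 4, 69 without replicate 6 labelled Smad3SmKO, up to 182 over the others); of 1059 alternative values for the genes named there, 912 kept their side of the threshold, 147 lost it and 0 changed sign.

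The genotype difference in endothelial share, -0.118 points, was 0.270 with Myh11 and Dcn at 0, 0.350 without the doubted controls, 1.55 at 30 min, 0.288 over all deposited barcodes, and -0.881 to 0.459 over libraries left out (above 0 without Smad3+/+ replicate 4 or replicates 2, 5 or 7 labelled Smad3SmKO). Fibroblast-led share, -0.0529 points, was 0.273 with both genes, 0.00928 without top Scrublet scores, 2.40 without the doubted controls, 3.97 at 30 min and -1.24 to 1.13 over libraries. Capillary-like share, -2.76, was 5.75 without the doubted controls, 6.99 at 30 min and -7.84 to 1.86 over libraries. Lymphatic-like share, -9.00, was 6.60 at 60 min and -15.3 to -3.65 over libraries. Arterial-like share ran from 3.10 to 6.63 over libraries. Among genes, Cd74 at 10 weeks was -0.80 with Myh11 and Dcn at 0, -0.26 without top Scrublet scores and -1.40 in capillary-like cells, and its difference between times was 1.26, 0.68 and 2.77 under those settings, while that of H2-Ab1 was 0.31 without top Scrublet scores. Against VSMCs, Igkc was -0.069 without the doubted controls and ran from -0.068 to 5.10 over libraries left out, and Hbb-bs from -13.62 to 3.73, its highest without replicate 6 labelled Smad3SmKO. Against fibroblasts, Hbb-bs was 2.17 without top Scrublet scores, 6.79 without the doubted controls and -9.91 to 6.88 over libraries, and Hba-a2 was 9.07 without the doubted controls and -15.60 to 9.19 over libraries, both changing sign without Smad3+/+ replicate 4 or replicate 6 labelled Smad3SmKO. The 30-min libraries alone could not be fitted for the difference between times, since every 10-week library was digested for 60 min. The cause of each change was not tested. Depth limits the tests: a library gave at most 163 endothelial cells, and Smad3, with 63 UMIs in all, did not pass the low-count filter.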
